A study of Mus musculus with 34 samples.

Results

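Many genes bear names from the testis or from sperm because they were first found there, yet some of them are expressed in other cells that build motile cilia. Genes named Spata (spermatogenesis associated), Spag (sperm associated antigen) or Tex with a number (testis expressed) were followed here. So were genes named Catsper (cation channel of sperm), Odf with a number (outer dense fibre) or Ropn1 (ropporin). The cultures held cells of the ependyma, the ciliated lining of the ventricles of the mouse brain, among other cells. Members were all genes whose symbol starts with one of these stems, apart from Spag1, Spag6l, Spag16, Spag17, Catsperd and Odf2, and which had at least 10 counts in 4 or more of the 34 libraries. Of 21647 genes in the count table, 91 carried such a name, and 48 of these passed the count rule, as did 14948 genes of the whole table. The 48 members comprised 17 of 29 Spata genes, 15 of 36 Tex genes, 6 of 8 Spag genes, 5 of 9 Catsper genes, 4 of 7 Odf genes and 1 of 2 Ropn1 genes.

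Bulk RNA sequencing was done on cells from the lateral ventricle walls of E18.5 embryos, grown to confluency and then kept without serum for 4 days to induce differentiation. Each of 3 lines had homozygous knockouts and +/+ siblings as wild types: Rfx1-/- (4 libraries) with 4 wild types, Rfx2-/- (6) with 8 wild types, and Rfx3-/- (6) with 6 wild types. The strain label of all 6 groups is C57BL/6, while every title also holds OF1, a term not explained there. The labels used here give neither a batch nor the source of each replicate (embryo, litter or culture), so p-values measure only the spread between these libraries. The Rfx genes encode transcription factors, and the comparison of each knockout with its own siblings asks which genes depend on the factor removed.

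The axoneme, the microtubule core of a motile cilium, is built on one plan in the sperm tail and in the ependymal cilium, so that doublet, radial spoke and central pair proteins are shared between both. Other parts of the sperm tail, such as the outer dense fibres, the CatSper calcium channel of the flagellar membrane and the connecting piece at the sperm neck, are known from sperm. RFX factors bind the X-box, a promoter motif of paired inverted repeats, and act on many ciliary genes.

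Total counts ran from 18152011 to 53410806 per library. The targeted mRNA was lower in every knockout library than in any wild type of its line, at 19.7 to 30.1 against 51.9 to 76 CPM (counts scaled to the size of the library) for Rfx1, 43.2 to 55.3 against 83 to 129 CPM for Rfx2 and 24.9 to 51.7 against 157 to 209 CPM for Rfx3. Foxj1, the regulator of motile ciliation, was at 638 CPM or more in all libraries, so RNA of ciliating cells was present in each. The cultures were mixed. Over all libraries, 6 astrocyte markers summed to 1838 to 10689 CPM and 7 microglia markers to 8.37 to 1132 CPM. The RNA of a member therefore need not come from ependymal cells. The Rfx3 knockouts were not uniform. Mcidas, a regulator that starts multiciliation, was at 93.7, 90.4 and 65.9 CPM in Rfx3_KO replicates 1 to 3 and at 20, 22.5 and 13.3 CPM in replicates 4 to 6, against 69.2 to 112 CPM in their wild types. The summed level of 15 ependymal markers was 2769.9 to 2927 CPM in replicates 1 to 3, 1236 to 1483 CPM in replicates 4 to 6 and 3146 to 3765 CPM in wild types, so the calls of the Rfx3 line are given with and without replicates 4 to 6. The same sum was 1373 to 1612 CPM in Rfx2 knockouts against 1917 to 3361 CPM in their wild types, and 2411 to 4235 against 2980.3 to 3995 CPM in the Rfx1 line. In bulk libraries such as these, fewer ependymal cells and less RNA per ependymal cell cannot be told apart, and the part of this shift in the results below was not tested. In Rfx2 knockouts 12 of 14 tested ependymal markers were called lower, and in Rfx3 knockouts 8 of 15, or 5 of 15 without replicates 4 to 6. Of 6 astrocyte markers, 4 were called higher in Rfx2 knockouts (summed level 5604 to 10689 CPM against 4373 to 8106 CPM in wild types) and 1 of 5 tested in Rfx3 knockouts. Their sum was 1931 to 3139 CPM in Rfx3_KO replicates 1 to 3, 4426 to 4754 CPM in replicates 4 to 6, and 1838 to 2431 CPM in wild types apart from Rfx3_WT replicate 6 (4379.7 CPM). Of 8 oligodendrocyte lineage markers, 2 were called higher in Rfx3 knockouts, and in Rfx2 knockouts 1 was called higher and 1 lower, while 0 of 7 microglia markers were called in any line. Of 4 choroid plexus markers tested, 2 were called lower in Rfx3 knockouts and 1 in Rfx2 knockouts. Of 8 neuronal markers, 2 were called higher and 1 lower in Rfx3 knockouts, and 0 of 7 tested were called in Rfx2 knockouts. Without Rfx3_KO replicates 4 to 6, 0 choroid plexus and 0 neuronal markers were called in the Rfx3 line. The part of these markers in the results below was not tested.

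Promoter sequences were examined because the removed factors bind the X-box. RefSeq promoters (GRCm38.p6), from 250 bases before to 50 bases after the annotated start, were at hand for 44 of the 48 members. The motif searched was GTNNCC, then 0 to 3 bases of any kind, then GGNNAC, which reads alike on both strands. Among members called lower in the Rfx2 or Rfx3 line (below), 5 of 23 genes held it (Odf3b, Ropn1l, Tex9, Catsperg1 and Spag5), and their 250 bases before the start are shown 5′ to 3′ with the motif in capitals. Tex52, which fell in the Rfx3 line, is shown last as a promoter where these letters were not found.
Odf3b, chr15:89379255-89379504, minus strand: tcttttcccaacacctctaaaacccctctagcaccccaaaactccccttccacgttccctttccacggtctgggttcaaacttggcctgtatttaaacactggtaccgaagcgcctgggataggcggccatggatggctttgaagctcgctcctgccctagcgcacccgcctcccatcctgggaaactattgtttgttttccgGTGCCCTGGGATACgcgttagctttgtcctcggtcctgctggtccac
Ropn1l, chr15:31453690-31453939, minus strand: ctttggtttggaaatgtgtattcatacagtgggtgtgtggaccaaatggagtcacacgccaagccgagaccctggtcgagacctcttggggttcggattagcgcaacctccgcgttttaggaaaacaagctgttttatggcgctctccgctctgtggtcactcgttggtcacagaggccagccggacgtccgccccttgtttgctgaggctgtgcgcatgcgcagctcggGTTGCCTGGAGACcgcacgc
Tex9, chr9:72491960-72492209, minus strand: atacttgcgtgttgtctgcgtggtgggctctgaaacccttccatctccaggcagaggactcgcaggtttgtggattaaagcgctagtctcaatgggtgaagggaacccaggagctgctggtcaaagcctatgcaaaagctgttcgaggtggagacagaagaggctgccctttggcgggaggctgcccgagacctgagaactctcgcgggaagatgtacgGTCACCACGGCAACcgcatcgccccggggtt
Catsperg1, chr7:29214034-29214283, minus strand: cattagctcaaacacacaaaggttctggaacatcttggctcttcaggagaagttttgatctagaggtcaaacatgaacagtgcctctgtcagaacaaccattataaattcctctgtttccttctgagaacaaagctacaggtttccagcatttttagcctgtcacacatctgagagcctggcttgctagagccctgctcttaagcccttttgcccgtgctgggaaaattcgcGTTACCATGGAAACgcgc
Spag5, chr11:78301341-78301590, plus strand: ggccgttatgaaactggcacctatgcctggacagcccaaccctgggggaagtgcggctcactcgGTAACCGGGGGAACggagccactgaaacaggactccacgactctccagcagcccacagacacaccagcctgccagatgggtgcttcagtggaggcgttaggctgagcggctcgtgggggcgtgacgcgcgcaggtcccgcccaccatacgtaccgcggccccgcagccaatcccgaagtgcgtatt
Tex52, chr6:128375260-128375509, plus strand: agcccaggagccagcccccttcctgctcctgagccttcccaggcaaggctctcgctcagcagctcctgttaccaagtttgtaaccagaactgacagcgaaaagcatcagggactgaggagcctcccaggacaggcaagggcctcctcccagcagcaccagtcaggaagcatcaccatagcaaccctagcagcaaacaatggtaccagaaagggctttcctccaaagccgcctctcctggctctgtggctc

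In the promoters above, the motif of Catsperg1 began 18 bases before the start, that of Ropn1l 20, that of Tex9 31 and that of Odf3b 47, while that of Spag5 lay farther out, at 186. The paired repeats were separated by 2 bases in Odf3b, Tex9, Catsperg1 and Spag5 and by 1 base in Ropn1l. For Catsperg1 the table holds 2 promoters, and the other had no match. Spata45 and Tex264 also held the motif and were not called in any line. Over all members, 7 of 44 genes (15.9%) held it, against 4.38% of all 27025 genes in the promoter table and 5.74% of the genes that pass the same count rule. The share was 21.7% of members called lower in either line and 9.52% of the others, beside 10.6% of all genes called lower in either line and 4.36% of other genes tested. The shorter motif GTTGCC, on either strand and free to overlap the longer one, stood in 10 member genes (22.7%), among them Ropn1l, Tex9, Spag8 and Odf3l1, and in 14.1% of all genes. Spata18, Spag8 and Tex52 held no match to the longer motif in this window. A match is a string of letters and does not show that a factor binds there. The lack of a match does not show that none binds, as sites with other letters were not searched.

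Wild-type levels of the members ran from low to high, from the percentile 3.17 (Tex14) to 93.1 (Spag8) among genes that pass the same count rule. Levels per kilobase of exon (RPKM, here CPM divided by the kilobases of exon) can be compared between genes, and their median over all wild types was 2.56 RPKM for the members against 6.2 RPKM for those genes. The 5 highest members were Spag8 (42.8 RPKM), a protein inside the microtubule doublets of the axoneme, Spag9 (36.9), the kinase scaffold JIP4, Odf3b (34.7), of a family of ciliary microtubule-associated proteins, Tex264 (31.5), a receptor for autophagy of the endoplasmic reticulum, and Spata24 (30.7). The level of Spata24 is uncertain, as it shares exonic bases with another annotated gene (below). Spata18, which acts in mitochondrial quality control, followed with 30.2 RPKM. In all, 12 members were at 10 RPKM or more, 19 between 1 and 10, 15 between 0.1 and 1, and 2 (Tex11 and Tex14) under 0.1. Neighbours in this order could overlap: over single wild-type libraries Spag8 ran from 28.8 to 53.1 RPKM and Odf3b from 16.2 to 50.8 RPKM.

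**Figure D1:**
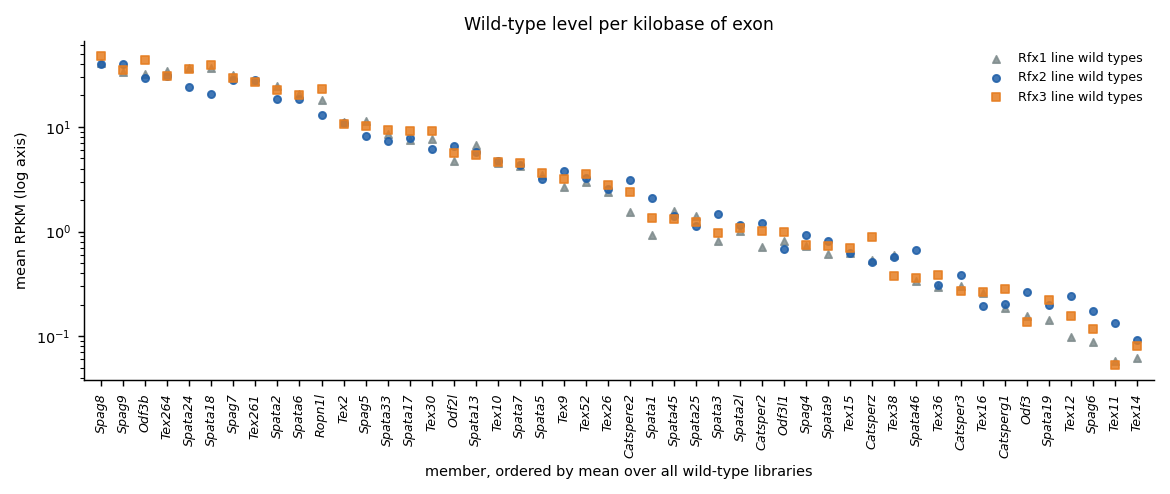
Mean wild-type level in RPKM (log axis) of each of the 48 members, ordered by the mean over all wild-type libraries, with a symbol for the wild types of each line. The order runs from Spag8 at 42.8 RPKM to Tex14 at 0.0817 RPKM.

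The names that failed the count rule were low throughout. Of the 43 left out, 38 had no library with 10 counts (the highest single count was 8), and the other 5 reached at most 15 counts. Just outside the rule stood Tex29, with 10 counts or more in 3 libraries and at most 14, and just inside it stood Tex12, with 4 libraries and at most 16. At the other end, 33 members had at least 10 counts in all 34 libraries.

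The wild types of the 3 lines differed in 21 of 47 members tested across lines (edgeR, adjusted p below 0.05), while 57.7% of all genes differed so. Spata1 stood at 2.08 RPKM in Rfx2 wild types, 0.922 in Rfx1 wild types and 1.36 in Rfx3 wild types (edgeR adjusted p = 1.49e-08). Ropn1l stood at 12.9, 18 and 23 RPKM in the Rfx2, Rfx1 and Rfx3 wild types (adjusted p = 0.00721, edgeR). Line and batch cannot be told apart, so each knockout is compared below only with its own siblings.

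In Rfx1 knockouts 0 of 38 members tested passed the test (edgeR, adjusted p below 0.05, as in every line), and 0.00723% of all genes were called. The median log2 difference, knockout minus wild type, was -0.01 against 0.00 over all genes. DESeq2 also called 0 members, and 2 members had an unadjusted p below 0.05. Catsperz, a regulator of the CatSper channel, was at 0.891, 1.76, 1.27 and 1.09 CPM in the knockouts and 0.677, 0.713, 0.605 and 0.722 CPM in the wild types. All knockouts thus lay above the wild types, with a log2 difference of 0.88 (SE 0.25, edgeR adjusted p = 0.9998). Spag8 was at 42.8, 57, 66.2 and 35.8 CPM in knockouts and 62, 61.4, 72.3 and 77.7 CPM in wild types (log2 difference -0.44, SE 0.18, edgeR adjusted p = 0.9998). Tex2, a lipid transfer protein of the endoplasmic reticulum and the next by p, differed by -0.13 (SE 0.07). Members that fell in the Rfx3 line deviated from the Rfx1 wild-type mean by a median of -0.13, -0.04, 0.25 and -0.23 (log2) in Rfx1_KO replicates 1 to 4. The ependymal marker sum of these 4 libraries was 3109, 3132, 4235 and 2411 CPM. Replicate 3 was highest and replicate 4 lowest in both measures. In Rfx1_WT replicates 1 to 4 the medians were -0.15, -0.13, 0.08 and 0.10. The sums there were 3222, 2980.3, 3387 and 3995 CPM. The part of the marker sum in these deviations was not tested. A further 10 members, among them Spag6, Odf3 and Tex38, were too low to be tested in this line.

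In Rfx2 knockouts 17 of 45 members tested fell (37.8%) and 3 rose, where 18.4% of all genes fell and 13.9% rose. The median log2 difference was -0.18, against 0.01 over all genes. In 9 members all knockouts lay below every wild type, a pattern seen in 6.93% of all genes tested. Without replicates 1 to 3 of both groups, 13 of the 17 were still called lower, and Odf3l1, Spata6, Tex30 and Tex38 were not. With replicates 1 to 4 only, 9 of the 17 were called, and Odf2l, Spag6, Spata33, Spata6, Tex2, Tex30, Tex38 and Tex9 were not. In Rfx3 knockouts 18 of 44 members fell (40.9%) and 1 rose, where 12.9% of all genes fell and 10.6% rose. The median was -0.29, against 0.02 over all genes, and in 13 members all knockouts lay below every wild type (9.83% of all genes). Without Rfx3_KO replicates 4 to 6, 8 members fell (Odf2l, Odf3b, Odf3l1, Spag8, Spata17, Spata6, Tex26 and Tex52) where 4.96% of all genes fell. With replicates 1 to 4 only, 2 members, Tex26 and Tex52, fell, beside 0.957% of all genes.

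**Figure D2:**
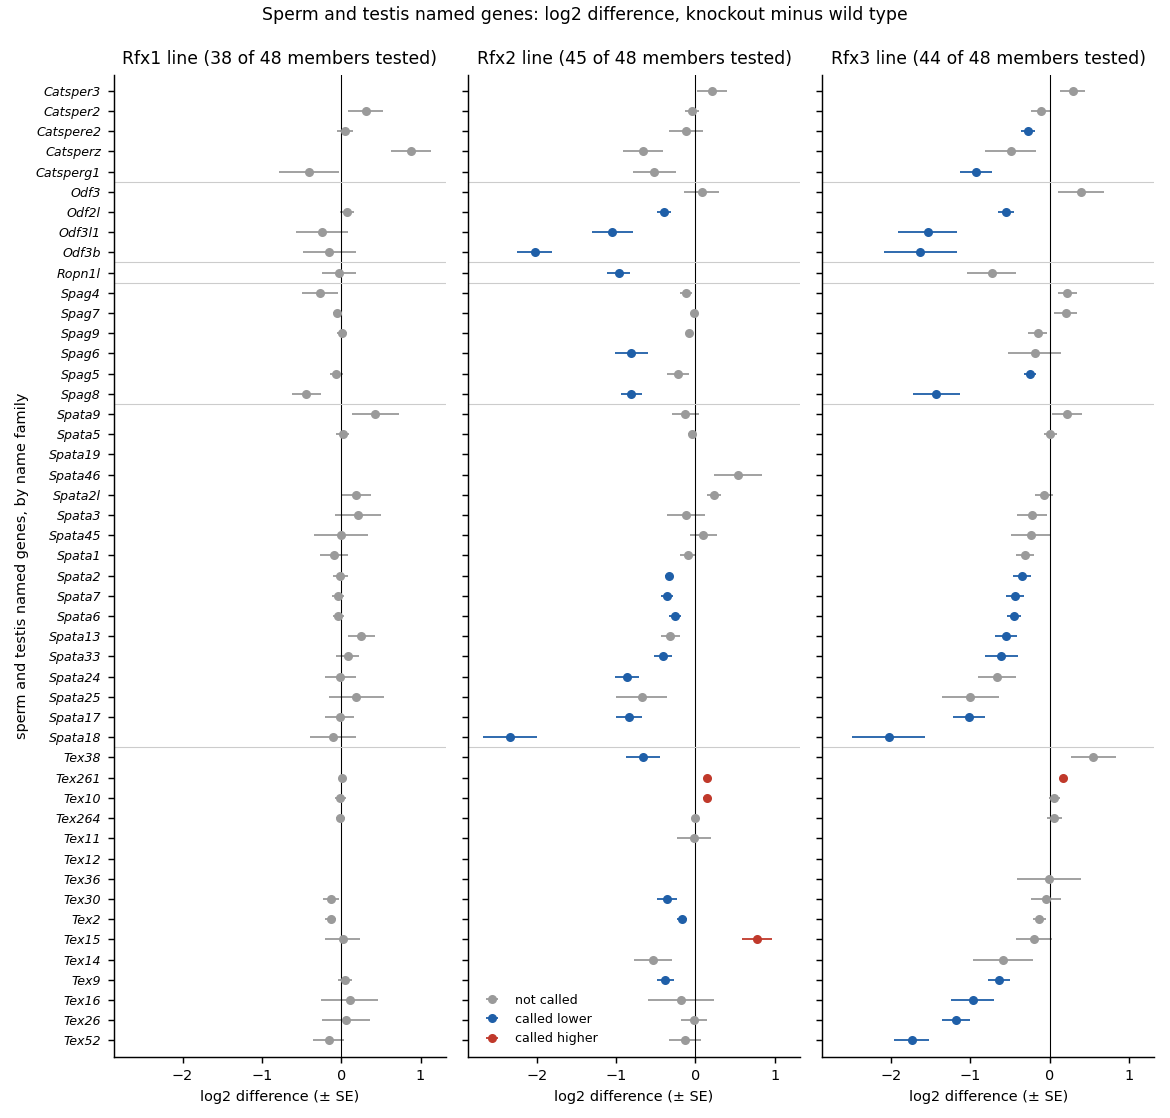
Log2 difference (knockout minus wild type, ± SE from edgeR) of each member in the Rfx1, Rfx2 and Rfx3 lines, by name family, with members called lower in blue, called higher in red and not called in grey. Members without a point were not tested. The Rfx1 panel holds 0 called members, the Rfx2 panel 17 lower and 3 higher, and the Rfx3 panel 18 lower and 1 higher.

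Of 43 members tested in both lines, 11 (25.6%) fell in both, where 8.63% of all genes tested in both did: Odf2l, Odf3b, Odf3l1, Spag8, Spata17, Spata18, Spata2, Spata33, Spata6, Spata7 and Tex9. They made up 64.7% of the members that fell in the Rfx2 line and 61.1% of those that fell in the Rfx3 line. These lines share no libraries, but the Rfx3 knockouts were also lower in the mRNA of the other 2 factors. Rfx2 was at 60 to 105 CPM in Rfx3 knockouts and 111 to 124 CPM in their wild types. Rfx1 was at 37.3 to 56.7 against 57.1 to 74.5 CPM there. Rfx3 overlapped between Rfx2 knockouts (167 to 210.4 CPM) and their wild types (141 to 239.8 CPM). The part of these shifts in the shared decreases was not tested. Without Rfx3_KO replicates 4 to 6, 6 of 43 members (Odf2l, Odf3b, Odf3l1, Spag8, Spata17 and Spata6) fell in both lines, beside 3.82% of all genes, and Spata18, Spata2, Spata33, Spata7 and Tex9 did not. The median deviation from the Rfx3 wild-type mean of the 17 members that fell in the Rfx2 line was -0.26, -0.29 and -0.36 (log2) in Rfx3_KO replicates 1 to 3 and -0.73, -0.76 and -0.98 in replicates 4 to 6. Single members could differ: 14, 17 and 12 of the 17 were below that mean in replicates 1 to 3, and 15, 16 and 17 in replicates 4 to 6. Members that fell in the Rfx3 line had medians between -0.59 and -0.32 in the Rfx2 knockouts. Rfx2_WT replicate 1 lay within that range at -0.44, and its ependymal marker sum, 1917 CPM, was the lowest of the Rfx2 wild types.

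Spata18 and Odf3b fell most in the Rfx2 line. Spata18 (chromosome 5, 73651379 to 73679512) was at 7.33 to 11 CPM in Rfx2 knockouts (median 8.12) and 16.2 to 92 CPM in wild types (median 38.8). The groups did not overlap, although the wild types spread widely (log2 difference -2.34, SE 0.34, adjusted p = 0.000247 in edgeR). In the Rfx3 line Spata18 ran from 6.26 to 43.8 CPM in knockouts (median 10.6) and from 67.5 to 99.6 CPM in wild types (median 80.8), again without overlap (-2.03, SE 0.46, edgeR adjusted p = 0.00937). Rfx3_KO replicates 1 and 2, at 43.8 and 40.5 CPM, stood above replicates 3 to 6 (6.26 to 11.5 CPM). Without replicates 4 to 6 the difference was -1.39 (SE 0.40) and was not called (edgeR adjusted p = 0.064).

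Odf3b and Odf3l1 belong to a family of proteins with SHIPPO repeats that sit on ciliary microtubules, and Odf3, the outer dense fibre protein of the sperm tail, is their relative. Odf3b (chromosome 15, 89377449 to 89379282) was at 10.8 to 16.2 CPM in Rfx2 knockouts (median 12.5) and 28.7 to 79.9 CPM in wild types (median 52.9). The 6 knockouts lay close together and below every wild type (-2.03, SE 0.22, edgeR adjusted p = 4.54e-05). In the Rfx3 line Odf3b was at 43.9, 36, 42.8, 9.55, 10.8 and 5.11 CPM in knockouts 1 to 6 and 58.3 to 89.8 CPM in wild types (-1.63, SE 0.46, adjusted p = 0.0239 in edgeR). All 6 were below every wild type and replicates 4 to 6 lowest; without these 3 the difference was -0.88 (SE 0.14, edgeR adjusted p = 0.00638). Leaving out Rfx3_WT replicate 3 alone ended the call of Odf3b in the Rfx3 line (-1.58, edgeR adjusted p = 0.0523). Odf3l1 fell in both lines from low levels, to 0.429 ± 0.14 CPM (SD, n = 6) from 0.897 ± 0.328 (n = 8) in the Rfx2 line and to 0.449 ± 0.255 (n = 6) from 1.31 ± 0.177 CPM (n = 6) in the Rfx3 line. The log2 differences of Odf3l1 were -1.05 (SE 0.26) and -1.54 (SE 0.37), without overlap in either line. In the Rfx2 line the call of Odf3l1 was lost without replicates 1 to 3 of both groups (-0.75, edgeR adjusted p = 0.0815). Odf3 itself was not called: it was at 0.576 ± 0.133 against 0.543 ± 0.159 CPM (Rfx2 line) and 0.365 ± 0.111 against 0.28 ± 0.109 CPM (Rfx3 line). Odf2l, a relative of the basal body protein Odf2, fell by 0.40 (SE 0.09) and 0.55 (SE 0.10) on the log2 scale in the Rfx2 and Rfx3 lines.

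**Figure D3:**
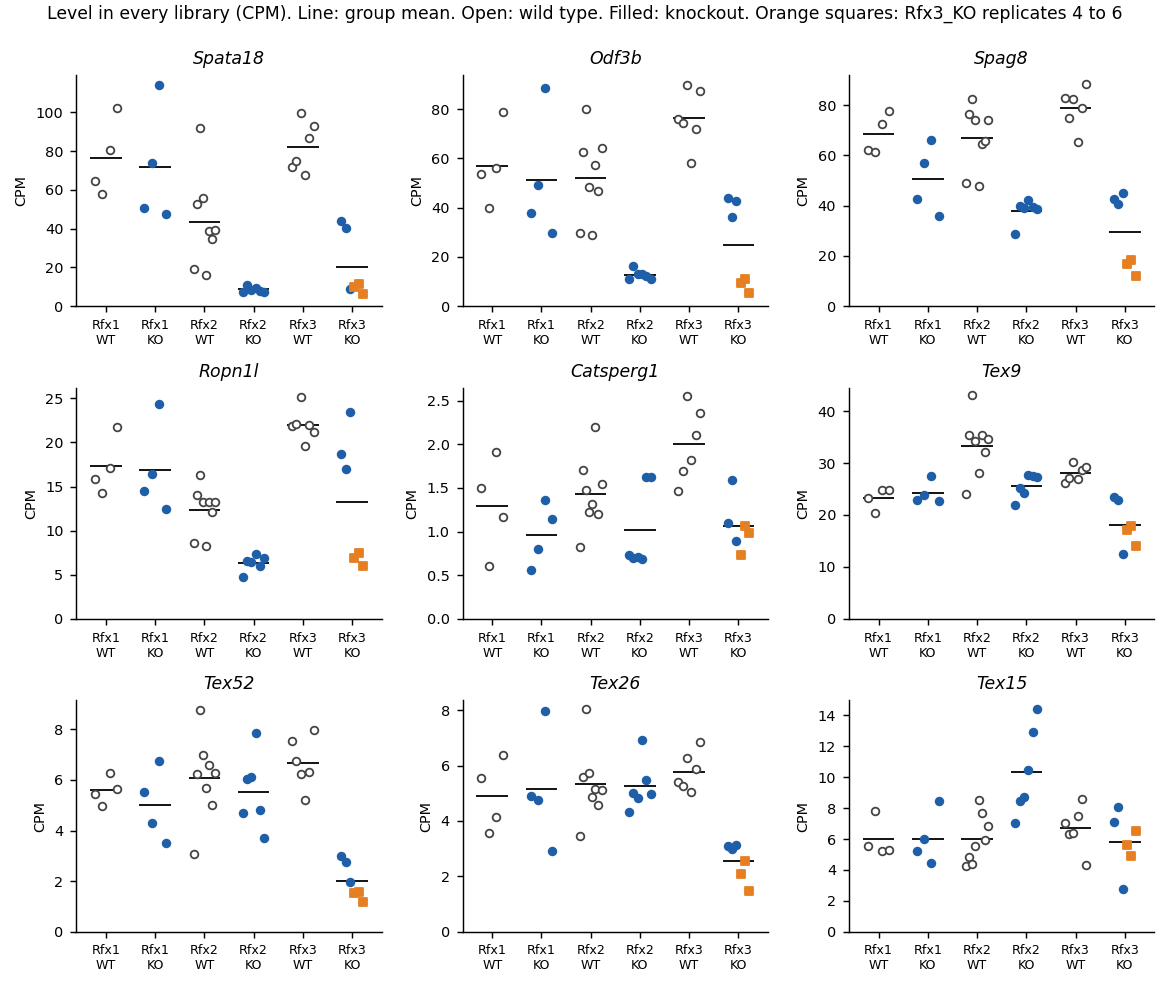
Level in CPM of 9 members in each library of the 6 groups, with group means as lines, wild types open, knockouts filled and Rfx3_KO replicates 4 to 6 as orange squares. Spata18, Odf3b and Spag8 lie below every sibling wild type in both the Rfx2 and the Rfx3 knockouts, while Tex52 and Tex26 do so in the Rfx3 knockouts and overlap with the wild types in the Rfx2 line.

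Of 6 members listed for the axoneme and ciliary base, all 6 fell in the Rfx2 line, with a median log2 difference of -0.81. This list and the lists for other roles below were drawn up with earlier results of these data known. Their counts thus describe the listed genes and do not test a class of genes. In that line 18.4% of all genes fell. In the Rfx3 line 4 of 6 fell (median -0.64), where 12.9% of all genes fell. Without Rfx3_KO replicates 4 to 6, 3 of 6 fell (median -0.27), beside 4.96% of all genes. Spag8 (chromosome 4, 43651335 to 43653594) was at 28.6 to 42.4 CPM in Rfx2 knockouts (median 39.4) and 47.9 to 82.3 CPM in wild types (median 69.8), without overlap (-0.81, SE 0.13, edgeR adjusted p = 0.000392). In the Rfx3 line it was at 42.8, 40.7, 44.9, 16.9, 18.4 and 12.1 CPM in knockouts 1 to 6 and 65.4 to 88.3 CPM in wild types (-1.43, SE 0.30, edgeR adjusted p = 0.00695). The knockouts fell into the same 2 levels as for Odf3b, and replicates 1 to 3 alone were still lower (-0.86, SE 0.10, edgeR adjusted p = 0.00152). Spata17, an IQ-motif protein of the central apparatus, fell by 0.84 (SE 0.16) in the Rfx2 line and by 1.02 (SE 0.20) in the Rfx3 line on the log2 scale, with all knockouts below every wild type in both. Spata7, a protein of the ciliary transition zone known from photoreceptors, fell by 0.36 (SE 0.08) and 0.44 (SE 0.11), and its call in the Rfx3 line ended without replicates 4 to 6 (edgeR adjusted p = 0.0614).

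Ropn1l, a radial spoke protein that binds kinase anchoring proteins, was the Ropn1 family member that passed the count rule. In Rfx2 knockouts Ropn1l (chromosome 15, 31441211 to 31453737) was at 4.71 to 7.3 CPM (median 6.51), below all wild types at 8.27 to 16.3 CPM (median 13.2; -0.97, SE 0.15, edgeR adjusted p = 0.000371). In the Rfx3 line it was at 18.7, 17, 23.4, 6.94, 7.47 and 5.94 CPM in knockouts 1 to 6 and 19.6 to 25.2 CPM in wild types, and was not called (-0.73, SE 0.31, edgeR adjusted p = 0.103). Replicate 3 lay among the wild types, replicates 1 and 2 just below them and replicates 4 to 6 far below (without the last 3, -0.14, SE 0.12). Spata24 had the same form: it fell in the Rfx2 line (-0.86, SE 0.15) and differed by -0.67 (SE 0.24, edgeR adjusted p = 0.0583) in the Rfx3 line, at 28.9, 24.5 and 38.6 CPM in replicates 1 to 3 and 15, 13.6 and 14.2 CPM in replicates 4 to 6, against 32.5 to 40.4 CPM in wild types (without the last 3, -0.20, SE 0.14). Spag6, of the central pair, fell in the Rfx2 line (0.336 ± 0.0791 CPM, n = 6, against 0.587 ± 0.147, n = 8; log2 difference -0.81, SE 0.21). Reads of Spag6 may be shared with its near copy Spag6l. Spata24 shares 41.9% of its exonic bases with another annotated gene, SPATA24, on the same strand, so its counts are uncertain.

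The CatSper members, subunits of the calcium channel that sperm need for hyperactivated swimming, were low but measurable. Of 5 members, 0 were called in the Rfx2 line, where 18.4% of all genes fell and 13.9% rose. In the Rfx3 line 2 of 5, Catsperg1 and Catspere2, fell, where 12.9% of all genes fell. Without Rfx3_KO replicates 4 to 6, 0 of 5 fell, beside 4.96% of all genes. Catsperg1 (chromosome 7, 29181321 to 29214035), an auxiliary subunit, was at 1.1, 1.59, 0.892, 0.726, 1.06 and 0.984 CPM in Rfx3 knockouts 1 to 6 and 1.47 to 2.55 CPM in wild types (median 1.96). Replicate 2 alone overlapped the wild types (-0.93, SE 0.20, edgeR adjusted p = 0.00826). Without replicates 4 to 6 the difference was -0.74 (SE 0.24) and was not called (edgeR adjusted p = 0.0909). In the Rfx2 line the log2 difference of Catsperg1 was -0.52 (SE 0.27, edgeR adjusted p = 0.155), with knockouts 1 to 4 at 0.689 to 0.73 CPM and knockouts 5 and 6 both at 1.62 CPM. Catspere2, another auxiliary subunit, was at 10.5 ± 1.18 CPM in Rfx3 knockouts (n = 6) and 12.7 ± 1.03 in wild types (n = 6), a small difference (-0.27, SE 0.09, edgeR adjusted p = 0.0449). That call was lost on leaving out Rfx3_KO replicate 4, 5 or 6 or any of Rfx3_WT replicates 1 to 5 (edgeR adjusted p from 0.055 to 0.0987), and without replicates 4 to 6 together the difference was -0.15 (SE 0.10). The pore subunit genes Catsper2 and Catsper3 were not called in either line: Catsper2 differed by -0.04 (SE 0.09) and -0.11 (SE 0.12; 0.02 without Rfx3_KO replicates 4 to 6), and Catsper3 by 0.21 (SE 0.19) and 0.29 (SE 0.16; 0.27 without them). Catsperz differed by -0.66 (SE 0.25, edgeR adjusted p = 0.0513) in the Rfx2 line and by -0.49 (SE 0.32) in the Rfx3 line, where the direction turned without replicates 4 to 6 (0.08, SE 0.21). Catsperz shares 46.5% of its exonic bases with Kcnk4 on the same strand, and Catsperg1 has a near copy, Catsperg2, so their counts are uncertain.

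Of the genes known for the structure of the sperm itself, Spata6, needed to form the connecting piece at the sperm neck, fell in both lines. Its log2 difference was -0.26 (SE 0.08) in the Rfx2 line and -0.45 (SE 0.09) in the Rfx3 line, from 105 ± 12.6 (n = 8) and 114 ± 6.4 CPM (n = 6) in wild types. The Rfx2 call of Spata6 was lost without replicates 1 to 3 of both groups (-0.12, edgeR adjusted p = 0.099) and with replicates 1 to 4 only (-0.36, edgeR adjusted p = 0.0692). The other 3 of this list tested in each line, Odf3, Spag4, of the spermatid nuclear envelope, and Spata3, were not called.

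Meiotic genes were low, from Tex14 at 0.0817 RPKM to Tex15 at 0.647 RPKM. Tex12, of the synaptonemal complex, was tested in no line, and Tex11, which also acts in meiotic recombination, and Tex14, of the bridges between germ cells, were not called where tested. Tex15 (chromosome 8, 33516738 to 33585582), which acts in meiotic recombination and in silencing of transposons in male germ cells, rose in the Rfx2 line. It was at 7.03 to 14.4 CPM in knockouts (median 9.61) and 4.28 to 8.53 CPM in wild types (median 5.73), with 4 of 6 knockouts above every wild type (0.78, SE 0.19, edgeR adjusted p = 0.00595). Knockouts 1 to 3, at 7.03, 8.49 and 8.75 CPM, were lower than knockouts 4 to 6, at 10.5, 12.9 and 14.4 CPM. The first 3 also had 64.4 to 100.3 CPM of Pdgfra, a marker of oligodendrocyte precursors, against 1.77 to 5.41 CPM in the last 3; its part in this difference was not tested. Leaving out replicates 1 to 3 of both groups gave 0.87 (SE 0.16, edgeR adjusted p = 0.00612). In the Rfx3 line the log2 difference of Tex15 was -0.20 (SE 0.23, edgeR adjusted p = 0.565; -0.15 without replicates 4 to 6).

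Among 13 members with general roles in cells, 4 fell and 2 rose in the Rfx2 line (median -0.08). There 18.4% of all genes fell and 13.9% rose. In the Rfx3 line 4 fell and 1 rose (median -0.07), where 12.9% of all genes fell and 10.6% rose. Without Rfx3_KO replicates 4 to 6, 0 of these members were called. Spata18 (above), of mitochondrial quality control, fell most of all members in both lines. Its log2 differences were -2.34 (SE 0.34) in the Rfx2 line and -2.03 (SE 0.46) in the Rfx3 line. Spag9 was at 428 ± 9.19 CPM in Rfx2 knockouts (n = 6) and 452 ± 30.8 in wild types (n = 8), a log2 difference of -0.08 (SE 0.04, edgeR adjusted p = 0.194). Tex264 differed by -0.01 (SE 0.03) and 0.06 (SE 0.09; 0.17 without Rfx3_KO replicates 4 to 6) in the Rfx2 and Rfx3 lines. Spata2, an adaptor of the deubiquitinase CYLD, fell in both lines, by 0.34 (SE 0.05) and 0.35 (SE 0.11) on the log2 scale, and Spata13, an exchange factor for small GTPases, fell in the Rfx3 line (-0.55, SE 0.14). Spag5, the spindle protein astrin, fell slightly there (-0.25, SE 0.08), as Tex30 and Tex2 did in the Rfx2 line (-0.36 and -0.17). Tex261, which acts in export from the endoplasmic reticulum, rose a little in both lines, by 0.14 (SE 0.03) and 0.17 (SE 0.04), and all 6 Rfx3 knockouts (119 to 133 CPM) were above the wild types (108 to 115 CPM). Tex10, of ribosome biogenesis, rose by 0.14 (SE 0.05) in the Rfx2 line. Without replicates 1 to 3 of both groups the Rfx2 calls of Tex261 (0.08, edgeR adjusted p = 0.108) and Tex10 (0.10, 0.257) were lost. With the replicate number as a block the Rfx2 line lost the calls of Tex2 (edgeR adjusted p = 0.111) and Tex10 (0.0871).

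Spata33 and Tex9 also fell in both lines. Spata33, known for binding calcineurin in sperm, differed by -0.41 (SE 0.11) in the Rfx2 line and by -0.61 (SE 0.21, edgeR adjusted p = 0.0491) in the Rfx3 line, where the call was lost on leaving out Rfx3_KO replicate 4, 5 or 6 or any wild type (edgeR adjusted p from 0.0689 to 0.099). Tex9 (chromosome 9, 72450394 to 72492212) was at 22 to 27.7 CPM in Rfx2 knockouts and 24 to 43 CPM in wild types (-0.38, SE 0.11, edgeR adjusted p = 0.0134), with overlap. In the Rfx3 line it was at 12.4 to 23.4 against 26.2 to 30.1 CPM, without overlap (-0.64, SE 0.14, edgeR adjusted p = 0.00854). Tex9 shares 32.3% of its exonic bases with Mns1, a ciliary gene on the opposite strand that fell in both lines too (-0.78 and -0.79). Whether the counting used strand is not given in the sources used here, so reads of Tex9 and Mns1 cannot be told apart in the shared part.

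The effects of Rfx2 and Rfx3 loss differed in 3 of 47 members tested (edgeR, a contrast of the 2 effects in a fit of all 34 libraries), where 3.84% of all genes differed, and 7 members had an unadjusted p below 0.05. Tex52 differed by 1.62 (SE 0.29, edgeR adjusted p = 0.000724), Tex26 by 1.18 (SE 0.27, adjusted p = 0.00994 in edgeR) and Tex38 by -1.20 (SE 0.34, edgeR adjusted p = 0.0386). Tex52 (chromosome 6, 128375456 to 128385144) was at 2.98, 2.75, 1.98, 1.53, 1.57 and 1.18 CPM in Rfx3 knockouts 1 to 6 and 5.22 to 7.98 CPM in wild types (median 6.53). All 6 knockouts were far below every wild type, among them replicates 1 to 3 (-1.74, SE 0.22, edgeR adjusted p = 0.000711; without replicates 4 to 6 -1.35, SE 0.18, 0.00371). In the Rfx2 line Tex52 was at 3.69 to 7.85 CPM in knockouts (median 5.42) and 3.08 to 8.77 CPM in wild types (median 6.25), with full overlap (-0.13, SE 0.20, edgeR adjusted p = 0.642). Tex52 shares 7.68% of its exonic bases with Foxm1 and 5.17% with Gm44596, both on the same strand. Foxm1 differed by 0.49 in the Rfx3 line and was not called. The part of shared reads in the counts of Tex52 was not tested.

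Tex26 (chromosome 5, 149439660 to 149470979) showed the same form. It was at 3.09, 2.97, 3.14, 2.07, 2.56 and 1.46 CPM in Rfx3 knockouts 1 to 6 and 5.03 to 6.85 CPM in wild types (-1.18, SE 0.18, edgeR adjusted p = 0.00162). Without replicates 4 to 6 the difference of Tex26 was -0.90 (SE 0.13, edgeR adjusted p = 0.00544). In the Rfx2 line it was at 4.31 to 6.92 CPM in knockouts (median 4.99) and 3.46 to 8.03 CPM in wild types (median 5.14; -0.02, SE 0.16). Tex38 (chromosome 4, 115779834 to 115781018) was very low, with 4 to 23 counts in the libraries of these 2 lines. It was at 0.133 to 0.336 CPM in Rfx2 knockouts, below all wild types at 0.363 to 0.674 CPM (-0.66, SE 0.21, edgeR adjusted p = 0.0236), and at 0.197 to 0.737 CPM in Rfx3 knockouts against 0.269 to 0.371 CPM in wild types (0.55, SE 0.28, edgeR adjusted p = 0.166; without replicates 4 to 6, 0.87, SE 0.29, 0.0911). The contrast of Tex38 lost its call without any one of Rfx2_KO replicate 1, Rfx2_WT replicate 8, Rfx3_KO replicates 1 and 3 and Rfx3_WT replicates 1, 2, 3, 5 and 6 (edgeR adjusted p from 0.0527 to 0.0644), and its call in the Rfx2 line was lost without Rfx2_KO replicate 1 or Rfx2_WT replicate 3. Tex15 came next, with a difference between the effects of 0.99 (SE 0.30, edgeR adjusted p = 0.0546) that did not pass. With replicate numbers as a block, Tex52 stayed called, Tex26 (edgeR adjusted p = 0.06) and Tex38 (0.0734) did not, and Tex15 was called (1.07, edgeR adjusted p = 0.0467).

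**Figure D4:**
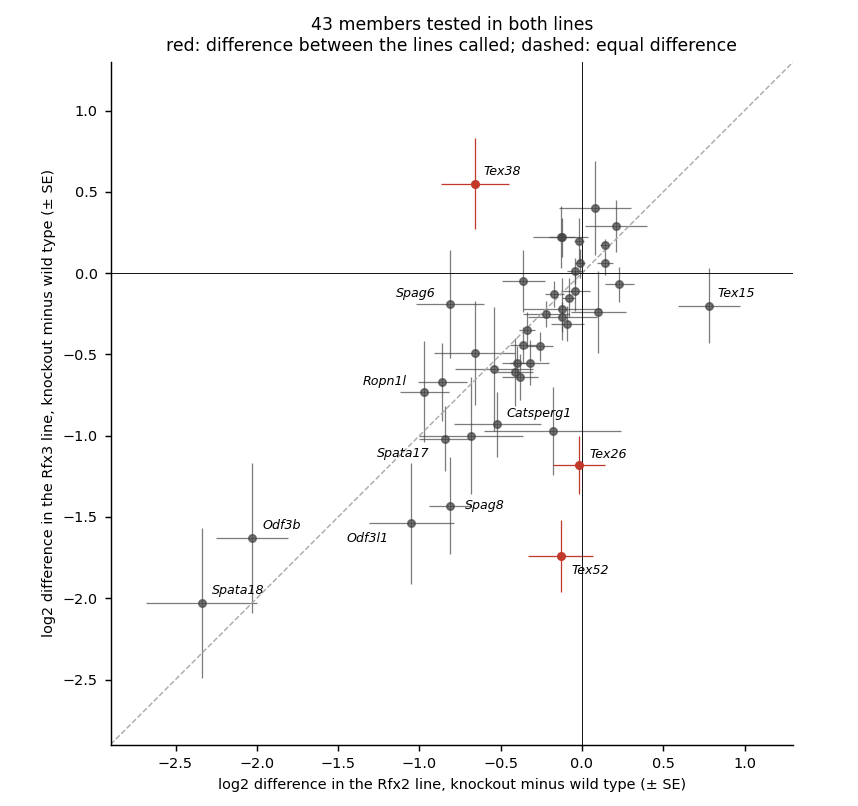
Log2 difference (knockout minus wild type, ± SE) in the Rfx3 line against that in the Rfx2 line for the 43 members tested in both. The dashed line marks equal differences, and the members in red (Tex52, Tex26 and Tex38) are those whose effects differed between the lines; Spata18 and Odf3b lie at the lower left with -2.34 and -2.03 in the Rfx2 line.

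Without Rfx3_KO replicates 4 to 6, the effects differed in 8 of 47 members, beside 13.2% of all genes. Tex52 (1.21, SE 0.30, edgeR adjusted p = 0.0127), Tex26 (0.87, SE 0.29, 0.0442) and Tex38 (-1.54, SE 0.34, 0.00803) stayed among them. Odf3b (-1.16, SE 0.34, edgeR adjusted p = 0.029) and Ropn1l (-0.83, SE 0.23, 0.0227) joined them with a more negative effect in the Rfx2 line. Tex30 (-0.66), Spag7 (-0.40) and Spata19 (-1.76) did so too, with limits. Spag7 was not called in the Rfx2 line (-0.02, SE 0.03). It was at 79 CPM in Rfx3_KO replicate 3, against 46 and 42.5 CPM in replicates 1 and 2. Tex30 was also highest in that library (27.6 CPM) among the Rfx3 knockouts. Spata19, with at most 29 counts in any library, was too low to be tested in the main fit of any line.

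Without Rfx3_KO replicates 4 to 6, the other members that had fallen in the Rfx3 line kept negative differences. Spata17 (-0.60, SE 0.10), Odf3l1 (-0.99, SE 0.20), Odf2l (-0.33, SE 0.06) and Spata6 (-0.27, SE 0.07) were still called. Spata13 (-0.59, SE 0.17), Tex9 (-0.50, SE 0.17), Spata2 (-0.18, SE 0.11), Spata33 (-0.17, SE 0.06) and Spag5 (-0.20, SE 0.10) were not called, nor was Tex261 (0.14, SE 0.05). Tex16, low at 0.596 ± 0.236 CPM in the 6 Rfx3 knockouts and 1.17 ± 0.291 in the 6 wild types (-0.97, SE 0.27, edgeR adjusted p = 0.0246), was at -0.79 (SE 0.36) and not called without them.

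Sperm flagellum genes with other names, a list of 38 genes in the table, give the setting of the axonemal members. In the Rfx2 line 22 of 29 tested fell and 0 rose (median log2 difference -0.78), where 18.4% of all genes fell. In the Rfx3 line 19 of 29 fell and 0 rose (-0.85), where 12.9% of all genes fell. Without Rfx3_KO replicates 4 to 6, 13 of 29 fell (-0.45), beside 4.96% of all genes. In the Rfx1 line 0 of 26 were called. Cfap65, a protein of the flagellar axoneme, fell by 1.87 (SE 0.28, edgeR adjusted p = 0.000288) in the Rfx2 line and by 1.88 (SE 0.43, edgeR adjusted p = 0.0101) in the Rfx3 line on the log2 scale. Tekt4, a tektin filament protein, differed by -1.98 in the Rfx3 line, and Ttc29, of the axoneme, by -1.82 there and -1.40 in the Rfx2 line. Tcp11 differed by -1.43 and Akap3, a kinase anchoring protein of the sperm fibrous sheath, by -1.41 in the Rfx2 line, and Cfap44 by -1.48 in the Rfx3 line. Without Rfx3_KO replicates 4 to 6, Cfap65 (-1.22), Tekt4 (-1.21) and Ttc29 (-1.07) were still called and Cfap44 (-1.23, edgeR adjusted p = 0.0626) was not. These named genes are those with the largest decreases among the list's called genes. Tested and not called in the Rfx2 line were Gapdhs (-0.03), Cabyr (-0.04), Slc26a8 (-0.00), Tssk1 (-0.20), Tssk6 (0.09), Efcab9 (0.05) and Tekt5 (-0.16). Of these, Cabyr (-0.42) and Tekt5 (-0.78) fell in the Rfx3 line. Akap3 itself was low, at 0.181 against 0.498 CPM in the Rfx2 line. Others, among them Akap4, Fscb, Fsip2 and Sun5, had a wild-type mean below 0.1 CPM and were not tested.

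Most markers of germ cells were near 0. Of 17 such genes, 10 to 12 had a wild-type mean below 0.1 CPM, depending on the line, and their summed level was 3.07 to 6.93 CPM over all libraries. Tnp1, Mael, Prm2 and Pgk2, abundant or typical in male germ cells, were at 0 in every library of 3 or more groups. Ddx4, the germ cell helicase, was at 1.33 ± 0.115, 2.31 ± 0.323 and 1.82 ± 0.381 CPM in the wild types of the Rfx1 (n = 4), Rfx2 (n = 8) and Rfx3 (n = 6) lines and was not called in any. Dazl, a germ cell RNA-binding protein, fell from 0.608 ± 0.334 (n = 8) to 0.109 ± 0.0621 CPM (n = 6) in the Rfx2 line and from 0.687 ± 0.263 to 0.318 ± 0.141 CPM (n = 6 each) in the Rfx3 line. Zpbp, of the sperm acrosome, was at 1.41 to 2.2 CPM in Rfx3 wild types and 0.551 to 1.13 CPM in Rfx3 knockouts, without overlap (-0.96, SE 0.22, edgeR adjusted p = 0.00922), and was not called in the other lines. Dazl and Zpbp made 2 of 4 germ cell markers tested that fell in the Rfx3 line, where 12.9% of all genes fell. Without Rfx3_KO replicates 4 to 6, 0 of 5 were called. Germ cell marker sums were 3.07 to 4.77 CPM in Rfx3 knockouts and 4.64 to 6.93 CPM in their wild types, and 3.75 to 5.86 against 4.38 to 6.71 CPM in the Rfx2 line, and their part in the members' differences was not tested.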

How the data were processed

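Total RNA from cultured cells was sequenced in 34 TruSeq libraries, per the labels' protocols. The authors deposited 1 table of raw counts per gene; per the submitters' processing notes it came from CASAVA 1.8.2, STAR 2.4 and featureCounts 1.4.6 on GRCm38, with the strand setting and gene annotation not given in the sources used. Of 21647 gene IDs, 21583 matched GENCODE M21, and the other 64 held 0.0341% to 0.0417% of counts.

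Each line was fitted apart with edgeR 4.0.16 (R 4.3.3): filterByExpr (minimum count 10, total 15), TMM scaling, quasi-likelihood F test and Benjamini-Hochberg adjustment over all genes tested, with calls at an adjusted p below 0.05. SE is the log2 difference divided by the square root of F. CPM values use TMM library sizes, and RPKM divides them by the kilobases of merged exons. A contrast of Rfx2 and Rfx3 effects and a test of wild types across lines came from a fit of all 6 groups. Deviations of single libraries used log2(CPM + 0.1). The fits were also run on simulated counts with known changes. These held no shift in cell types and no uneven knockouts, so they do not bear on those features.

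The members, gene lists and tests were chosen with earlier results of these data known. The text names the called members with the largest differences (mean of at least 0.5 CPM), the smallest p in the Rfx1 line, the highest RPKM, and the CatSper and Ropn1 members; Spata2, Spata6, Spata7, Spata13, Spata33, Odf2l, Spag5, Spag6, Tex30 and members given with them were named after their values were seen. Alternatives were DESeq2 1.42.0, RLE scaling, limma-voom (limma 3.58.1), other count filters, a replicate block, fits of all groups and fits without single libraries or sets of libraries; leaving out Rfx3_KO replicates 4 to 6 was added after the data were seen. Same-numbered knockouts and wild types deviated together in the Rfx2 line (correlations from 0.16 to 0.614 over all 6 pairs). Yet Rfx2_KO replicates 3, 5 and 6 matched a wild type of another number better (0.644, 0.464 and 0.477). Whether the numbers pair libraries is thus not known. The main fits used no pairing, and the replicate block is given as an alternative. Count depth ran from 18152011 to 53410806 and limits genes of a few counts, such as Tex38. The 43 names below the count rule were left out.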

Additional observations from a re-analysis of the deposited data

Results flagged for a closer look

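The effects of Rfx2 and Rfx3 loss differed for 3 of 47 members in a test of the difference itself (edgeR), beside 3.84% of all genes. They were Tex52 by 1.62 (edgeR adjusted p = 0.000724), Tex26 by 1.18 (0.00994) and Tex38 by -1.20 (0.0386), Rfx2 effect minus Rfx3 effect on the log2 scale. With a replicate block the contrast of Tex26 had an edgeR adjusted p of 0.06 and that of Tex38 0.0734. The contrast of Tex38, a gene of very few counts, was also lost on leaving out certain single libraries (named above).

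In 150 groups of values (25 named members in 6 groups), 12 held a library far from the others by Dixon's criterion, which chance meets in about 1 of 20 groups. Tex38 did so in 3 groups: 0.133 CPM in Rfx2_KO replicate 1 (next 0.294), 0.674 in Rfx2_WT replicate 3 (next 0.487) and 0.371 in Rfx3_WT replicate 4 (next 0.306). Catsperz was high in Rfx2_WT replicate 3 (1.12 CPM, next 0.7) and in Rfx3_WT replicate 3 (1.59 CPM, next 1.1). Spag9 was low in Rfx1_WT replicate 4 (343 CPM, next 385) and in Rfx3_KO replicate 3 (219 CPM, next 360.2), and Tex264 was high in that same knockout (120.0 CPM, next 88.5). Spag8 was low in Rfx2_KO replicate 1 (28.6 CPM, next 38.6) and Tex2 in Rfx2_KO replicate 6 (48.2 CPM, next 53.4). Tex15 was high in Rfx1_WT replicate 2 (7.84 CPM, next 5.56), and Tex16 was low in Rfx2_WT replicate 1 (0.24 CPM, next 0.739).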

How the results depend on the processing

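Calls among members numbered 0 in the Rfx1 line, 20 in the Rfx2 line and 19 in the Rfx3 line, and 3 for the difference of effects. With replicates 1 to 4 only, 13 members were called in the Rfx2 line and 2 in the Rfx3 line. Without Rfx3_KO replicates 4 to 6, 8 were called in the Rfx3 line and 8 for the difference of effects. Leaving out single libraries gave 0 to 0 calls (Rfx1), 16 to 23 (Rfx2), 14 to 21 (Rfx3) and 2 to 4 (difference of effects). DESeq2 called 22 members in the Rfx2 line and 22 in the Rfx3 line, and limma-voom 19 and 23. With the replicate block, 0, 18 and 17 members were called in the Rfx1, Rfx2 and Rfx3 lines and 2 for the difference of effects. The block ended the calls of Tex2 and Tex10 in the Rfx2 line and of Catspere2, Spag5 and Tex261 in the Rfx3 line, where Spata24 was called with it. Correlations of same-numbered libraries ran from -0.0894 to 0.454 in the Rfx1 line and from -0.364 to 0.204 in the Rfx3 line. The main fits paired no libraries by number in any line.

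Of 35 results for single named genes, 13 kept their call in every alternative: Odf3b, Ropn1l, Spag8, Spata17, Spata18, Spata24 and Tex15 in the Rfx2 line, Tex26 and Tex52 in the Rfx3 line, the contrast of Tex52, and the uncalled Catsperz, Spag8 and Tex2 in the Rfx1 line. Over all 35, 430 of 480 fits without 1 library and 250 of 297 other fits kept the call, the rest lost it, and 0 turned direction; the cause was not tested. Tex38, at 4 to 21 counts in the Rfx2 line, lost its call there without Rfx2_KO replicate 1 (edgeR adjusted p = 0.0945) or Rfx2_WT replicate 3 (0.0555). Tex16 lost its call in the Rfx3 line without Rfx3_KO replicate 5 or 6 or Rfx3_WT replicate 4 or 5.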
